A study of Mus musculus with 4 samples.

Results

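Osteoclast genes were examined in leukocytes of the mouse dura mater, the outermost of the meninges, which lies against the inner face of the skull. The 10 genes were chosen by symbol, and all 10 occurred among the 55401 genes of the deposited tables. They were the ligand *Tnfsf11*, the receptors *Tnfrsf11a* and *Oscar*, the transcription factor *Nfatc1*, the fusion genes *Dcstamp*, *Ocstamp*, and *Atp6v0d2*, and the resorption and hormone response genes *Ctsk*, *Acp5*, and *Calcr*. Male WT C57BL/6J mice had received an adeno-associated virus of serotype 9 in the cisterna magna, a CSF-filled space below the cerebellum, at 4 wk of age. AAV-mVEGF-C (named AAV-VEGF-C in the labels) carried full-length mouse VEGF-C, a growth factor of lymphatic vessels. AAV-CTRL (AAV-Control in the labels) carried a soluble fragment of the receptor VEGFR-3 fused to an immunoglobulin part and lacking VEGF-C binding, so the controls had also received a vector and made a secreted protein. Each group had 2 libraries, and each library was a pool of the viable CD45+ cells of 10 to 12 mice, sorted from dura that had been peeled from skullcaps and digested with collagenase. The age of these mice at collection is not given in the sources used here. Nothing in the labels states more about the separation of the pools than an experiment number, so the p-values below measure the spread between pools.

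Osteoclasts are the multinucleated cells that resorb bone, and they form by fusion of precursors of the monocyte and macrophage lineage. RANKL, the product of *Tnfsf11*, binds RANK, the product of *Tnfrsf11a*, on the precursor and turns on NFATc1, which drives the genes for fusion and for acid and protease secretion. Mature osteoclasts are large and attached to bone, whereas precursors and macrophages, which use some of the same genes, are single cells.

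The libraries held 32520709 to 46409700 reads assigned to genes, and edgeR's TMM factors were 0.964 to 1.03. *Ptprc*, the gene of CD45, was at 191 to 214.9 TPM (transcripts per 1000000, a scale corrected for gene length) in the 4 libraries. AAV-CTRL 1 stood somewhat apart, with 20993 genes detected against 29230 to 37535 in the other libraries and with r = 0.967 to 0.973 to them, against r = 0.981 to 0.988 among the other libraries. These r values are across the 19806 tested genes, which are not independent replicates.

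The promoters of *Ctsk*, *Acp5*, and *Tnfsf11* are shown because *Ctsk* and *Acp5* were lowest in the same library, AAV-mVEGF-C 2, and *Tnfsf11* was not. *Calcr*, *Ocstamp*, and *Atp6v0d2* were also lowest in that library, so only a part of the genes with this pattern is shown. The promoters are RefSeq sequences on GRCm38.p6, from 250 bases before the gene start to base 5 after it. Capitals mark the core letters bound by NFAT factors, GGAAAA on either strand. The stretch of *Ctsk* is chr3:95498960-95499214 on the plus strand, that of *Acp5* is chr9:22135742-22135996 on the minus strand, and that of *Tnfsf11* is chr14:78308039-78308293 on the minus strand.
Ctsk: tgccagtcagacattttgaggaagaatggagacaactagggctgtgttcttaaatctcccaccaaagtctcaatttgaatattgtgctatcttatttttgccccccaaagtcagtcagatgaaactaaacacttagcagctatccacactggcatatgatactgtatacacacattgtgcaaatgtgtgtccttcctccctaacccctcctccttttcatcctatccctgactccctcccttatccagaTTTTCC
Acp5: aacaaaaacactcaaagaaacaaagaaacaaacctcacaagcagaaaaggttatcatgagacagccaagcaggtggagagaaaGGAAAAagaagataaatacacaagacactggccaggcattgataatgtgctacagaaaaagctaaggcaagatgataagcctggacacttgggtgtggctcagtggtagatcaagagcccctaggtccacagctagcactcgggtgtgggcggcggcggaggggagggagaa
Tnfsf11: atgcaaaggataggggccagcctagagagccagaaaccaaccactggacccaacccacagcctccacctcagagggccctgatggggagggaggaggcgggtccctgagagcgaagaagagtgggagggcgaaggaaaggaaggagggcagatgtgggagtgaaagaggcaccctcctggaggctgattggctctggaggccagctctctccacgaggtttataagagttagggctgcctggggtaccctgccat
The match in *Ctsk* began at base -1 and that in *Acp5* at base -167, counted from the gene start, and *Tnfsf11* had 0 matches. Promoters of 6 of the 10 genes were searched over 300 bases, from 250 bases before to 50 after the start. Those of *Nfatc1*, *Dcstamp*, *Ocstamp*, and *Atp6v0d2* were not searched. *Oscar* had 2 matches, at -250 and -83, while *Tnfrsf11a*, both start sites of *Calcr*, and the other 2 start sites of *Acp5* had 0. *Calcr* was lowest in AAV-mVEGF-C 2 and *Oscar* in AAV-CTRL 1, both from few reads. Of all 32851 promoters of this length, 23.4% held a match. The AP-1 letters TGANTCA were in none of these promoters and in 7.81% of all, and the CACGTG letters were in none and in 7.15% of all. The PU.1 letters GAGGAA, which share GGAA with the NFAT letters, occurred 2 times each in *Ctsk* and *Oscar*, in 0 of the other promoters searched, and in 28.3% of all. A match of letters is a description of the sequence and not a binding site.

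Transcripts of 8 of the 10 osteoclast genes were plentiful enough to be tested, and none passed the test between AAV-mVEGF-C and AAV-CTRL. On average over the 4 libraries and on the TPM scale, *Nfatc1* was highest at 30.2, followed by *Acp5* at 24.2, *Ctsk* at 16.2, *Tnfsf11* at 7.93, *Tnfrsf11a* at 7.58, *Atp6v0d2* at 3.97, *Dcstamp* at 2.25, and *Ocstamp* at 0.516. *Oscar* and *Calcr* averaged 0.0448 and 0.0233 TPM. *Nfatc1*, *Acp5*, and *Ctsk* had higher mean TPM than 87.8%, 84.8%, and 78.0% of the tested genes. The ranges of neighbors in this order overlapped, except between *Tnfrsf11a* and *Atp6v0d2*, between *Dcstamp* and *Ocstamp*, and between *Ocstamp* and *Oscar*. The dural CD45+ sort held *Acp5* and *Ctsk* transcripts, with almost no reads of *Calcr* and *Oscar*, both of which are used to mark osteoclasts. In such bulk samples, fewer cells of a type and less RNA per cell cannot be told apart.

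**Figure D1:**
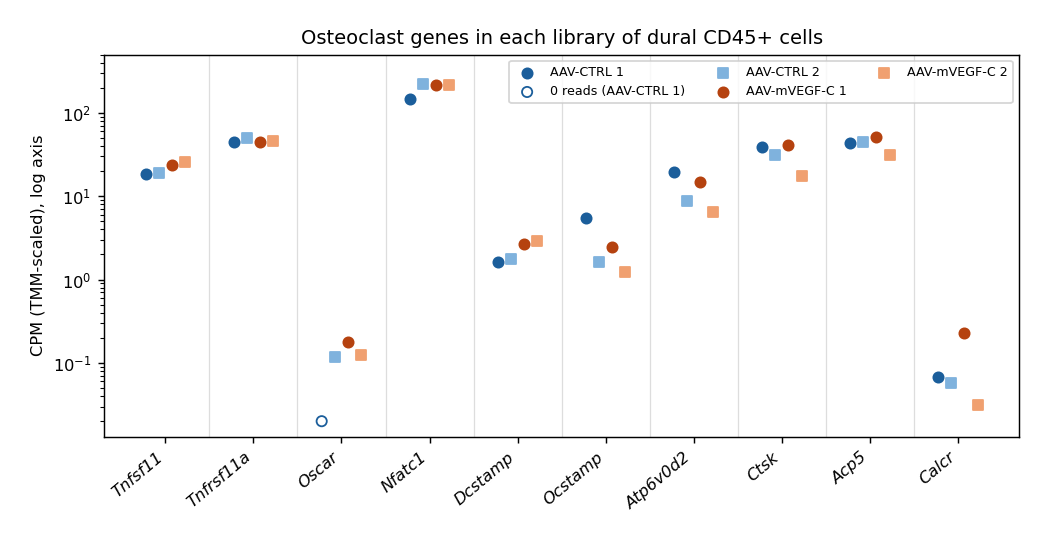
Reads per 1000000 (CPM, TMM-scaled, log axis) of the 10 osteoclast genes, with 1 point per library and each group in its own color. *Nfatc1* is the highest and *Oscar* and *Calcr* are near the bottom. The open circle stands for 0 reads of *Oscar* in AAV-CTRL 1 and is drawn at an arbitrary height.

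With edgeR's quasi-likelihood test and Benjamini-Hochberg adjustment, 0 of the 8 tested genes had an adjusted p under 0.05, and 0% of all tested genes did. With DESeq2, 0 of the 8 passed, against 0.397% of all genes that it adjusted. At an unadjusted p under 0.05, edgeR called 0 of the 8, against 2.64% of all tested genes. The log2 fold change was positive for 3 of the 8 and negative for 5, with a median of −0.090, against 0.0034 over all tested genes. Both AAV-mVEGF-C libraries were above both AAV-CTRL libraries in CPM for 2 of the 8 (*Tnfsf11* and *Dcstamp*), against 16.8% of all tested genes. Both were below for 0 of the 8, against 15.2% of all tested genes. On the TPM scale the split over all genes leaned lower, with 8.92% of all tested genes higher and 28.5% lower without overlap. On that scale 2 of the 8 had a higher and 6 a lower mean after AAV-mVEGF-C, and *Tnfsf11* was higher and *Tnfrsf11a* lower without overlap.

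*Tnfsf11* varied little within groups. This gene encodes RANKL, the cytokine that osteoblasts, osteocytes, and activated T cells present to osteoclast precursors. Its CPM was 18.3 and 19.1 in the AAV-CTRL libraries and 23.9 and 25.8 in the AAV-mVEGF-C libraries, from 657 to 935 reads. Both AAV-mVEGF-C libraries were above both controls, also on the TPM scale, where AAV-CTRL had 6.70 and 7.59 and AAV-mVEGF-C had 8.42 and 9.02. The groups differed by 0.41 ± 0.18 in log2 (SE, n = 2 per group; 95% interval, −0.030 to 0.85), with an unadjusted p of 0.0626 and an adjusted p of 0.999 by edgeR's quasi-likelihood test, so the difference did not pass.

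Genes of cell types that can make RANKL were read beside it. T cell markers had a summed TPM of 256.1 and 280.1 in AAV-CTRL and of 313.7 and 317.9 in AAV-mVEGF-C, which is the order of *Tnfsf11* in TPM. Their summed CPM was 363.7 and 352.5 in AAV-CTRL and 451.2 and 443.2 in AAV-mVEGF-C. There library 1 was the higher within each group, whereas *Tnfsf11* was higher in library 2 of each group. The fold change was positive for 10 of these 12 genes, and 6 of the 12 were higher without overlap in CPM, against 16.8% of all tested genes. In TPM, 7 of the 12 were higher without overlap, against 8.92% of all tested genes, and 5 had a lower mean. *Trbc1* and *Cd3g* were the most abundant of the list. Osteoblast and osteocyte markers ran the other way, with 89.2 and 157.6 TPM in AAV-CTRL and 56.0 and 74.1 TPM in AAV-mVEGF-C. The collagen genes *Col1a2* and *Col1a1* made up most of this sum in every library, so it mostly follows these genes. *Col1a2* was at 32.5 and 54.1 TPM in AAV-CTRL and at 15.7 and 24.2 TPM in AAV-mVEGF-C. *Col1a1* was at 31.6 and 52.8 TPM in AAV-CTRL and at 16.2 and 21.9 TPM in AAV-mVEGF-C. Of the 9 markers that could be tested, 6 had a negative fold change. In CPM, 5 of the 9 were lower without overlap, against 15.2% of all tested genes. No marker of either list was at 0 in every library, and the part of these cells in the *Tnfsf11* values was not tested.

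*Tnfrsf11b* encodes osteoprotegerin, the decoy receptor that holds RANKL away from RANK. Its CPM was 1.05 and 2.76 in AAV-CTRL and 0.845 and 0.379 in AAV-mVEGF-C. The groups did not overlap, but the difference of −1.63 ± 0.81 in log2 (SE, n = 2 per group) did not pass, with an unadjusted p of 0.0922. The TPM ratio of *Tnfsf11* to *Tnfrsf11b* was 22.2 and 8.62 in AAV-CTRL and 36.0 and 85.9 in AAV-mVEGF-C, higher in both AAV-mVEGF-C libraries. Fibroblasts and osteoblasts also make osteoprotegerin, and between the groups their markers were mostly lower after AAV-mVEGF-C, as *Tnfrsf11b* was. Within AAV-mVEGF-C the order differed, as *Tnfrsf11b* was higher in library 1. The summed fibroblast markers (109.1 and 167.9 TPM) and osteoblast and osteocyte markers (56.0 and 74.1 TPM) were higher in library 2. All 11 tested fibroblast markers had a negative fold change, with a median of −0.77, and the median of the 9 tested osteoblast and osteocyte markers was −0.92. Their part in the *Tnfrsf11b* values and in the ratio was not tested. The ratio rests on few reads of *Tnfrsf11b*, and with 2 pools against 2 the smallest two-sided p of an exact permutation test is 0.333.

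*Tnfrsf11a*, the gene of the receptor RANK (chr1:105780718-105847981, plus strand, GRCm38), varied little among the libraries. Its CPM was 44.8 and 50.3 in AAV-CTRL and 44.3 and 45.4 in AAV-mVEGF-C, and its values overlapped between the groups. In TPM it was at 7.31 and 8.77 in AAV-CTRL and at 7.11 and 7.12 in AAV-mVEGF-C, lower in both AAV-mVEGF-C libraries. The log2 fold change was −0.083 ± 0.16 (95% interval, −0.48 to 0.31). *Oscar*, the gene of a costimulatory receptor of osteoclasts that signals through an ITAM adaptor, was near the limit of detection. It had 0 and 4 reads in AAV-CTRL and 7 and 4 reads in AAV-mVEGF-C, too few to pass the filter. The 0 reads of AAV-CTRL 1 allow a level of up to 0.0646 reads per 1000000, a limit for counting error only.

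*Nfatc1*, the main transcription factor of osteoclast formation, is also used by activated lymphocytes. Its CPM was 146.3 and 219.3 in the AAV-CTRL libraries and 217.8 and 218.9 in the AAV-mVEGF-C libraries. AAV-CTRL 1 was low and the other libraries lay within a narrow range, so the log2 fold change of 0.26 ± 0.22 (95% interval, −0.28 to 0.80), which did not pass, rested on 1 library. Without AAV-CTRL 1 it was −0.023, and without AAV-CTRL 2 it was 0.59. An annotated gene on the opposite strand overlaps *Nfatc1*, and how the counting used strand is not given in the sources used here.

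The fusion genes did not move together. *Dcstamp* and *Ocstamp* encode membrane proteins that precursors need to fuse, and *Atp6v0d2* encodes a subunit of the vacuolar proton pump that takes part in fusion. *Dcstamp* had a CPM of 1.61 and 1.75 in AAV-CTRL and of 2.64 and 2.93 in AAV-mVEGF-C, from 60 to 103 reads. Both AAV-mVEGF-C libraries were higher, with a log2 fold change of 0.73 ± 0.45 (95% interval, −0.38 to 1.84), which did not pass (unadjusted p of 0.158 and adjusted p of 0.999 by edgeR's quasi-likelihood test). The TPM table gave another order, with 3.32 and 1.80 in AAV-CTRL and 2.13 and 1.74 in AAV-mVEGF-C. There AAV-CTRL 1 was the highest library and the fold between group means was 0.756, so the direction of *Dcstamp* depended on the unit.

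The reads behind 1 TPM showed where the tables parted. *Dcstamp* had 21.7 and 33.3 reads per TPM in AAV-CTRL and 48.3 and 53.5 in AAV-mVEGF-C. Relative to the median tested gene of the same library, this figure differed 3.36-fold between the highest and the lowest library for *Dcstamp* and 1.03- to 1.08-fold for the other 7 tested osteoclast genes. TPM divides reads by a length, so reads per TPM move with the length used for a gene in that library. GENCODE M21 lists 6 transcripts of *Dcstamp*, of 345 to 1997 bases (chr15:39745930-39760938, plus strand). Whether the transcripts in use differed was not tested, as no transcript table was used here.

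**Figure D2:**
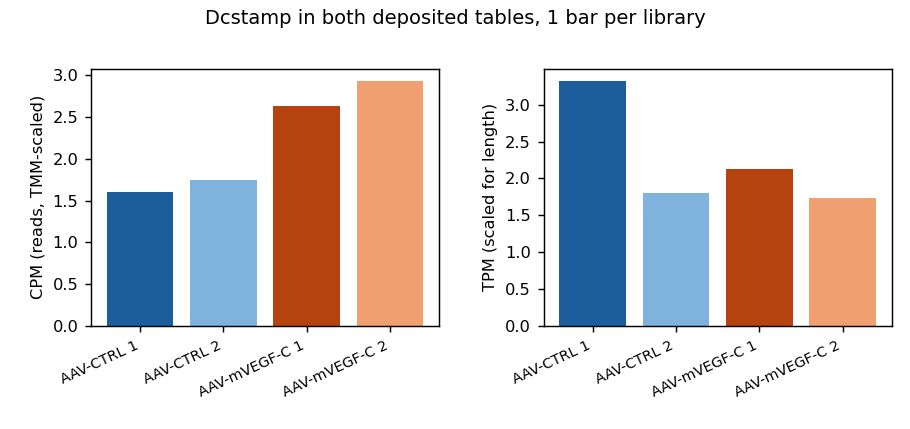
*Dcstamp* in the 4 libraries, 1 bar per library, as CPM from the read table (left) and as TPM (right), both axes from 0. The AAV-mVEGF-C bars are the taller ones in CPM, at 2.64 and 2.93, and AAV-CTRL 1 is the tallest in TPM, at 3.32.

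*Ocstamp* (chr2:165393760-165400405, minus strand) had a CPM of 5.48 and 1.63 in the AAV-CTRL libraries and of 2.46 and 1.23 in the AAV-mVEGF-C libraries, from 39 to 245 reads. The controls alone differed 3.37-fold, the AAV-mVEGF-C libraries 2.00-fold, and the groups overlapped. Its log2 fold change of −0.95 ± 0.70 (95% interval, −2.66 to 0.76) did not pass and became 0.16 without AAV-CTRL 1. Without AAV-CTRL 2 it was −1.56, with an adjusted p of 0.0484 by edgeR's quasi-likelihood test, in a fit that called 2058 genes and took the spread of the lone control from the AAV-mVEGF-C libraries. *Atp6v0d2* (chr4:19876841-19922605, minus strand) had a CPM of 19.7 and 8.69 in the control libraries and of 14.7 and 6.41 in the AAV-mVEGF-C libraries. As for *Ocstamp*, AAV-CTRL 1 was highest and AAV-mVEGF-C 2 lowest. *Atp6v0d2* differed 2.26-fold within AAV-CTRL and 2.29-fold within AAV-mVEGF-C, with library 1 the higher in both groups. This spread was larger than the log2 fold change of −0.43 ± 0.52 between the groups (95% interval, −1.70 to 0.84). That fold change did not pass and became 0.26 without AAV-CTRL 1. Libraries of the same number differed by −0.40 and −0.39 in log2(CPM + 1), and with a replicate block the log2 fold change was −0.43 and did not pass.

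Of the resorption genes, *Ctsk* encodes cathepsin K, the protease that degrades bone collagen. Its CPM was 38.7 and 30.9 in the AAV-CTRL libraries and 41.1 and 17.3 in the AAV-mVEGF-C libraries. The highest and the lowest value were thus both from AAV-mVEGF-C, 2.38-fold apart, and the log2 fold change was −0.25 ± 0.40 (95% interval, −1.22 to 0.72). *Acp5* encodes tartrate-resistant acid phosphatase, the enzyme stained to show osteoclasts. Its CPM was 43.2 and 44.9 in the AAV-CTRL libraries and 51.0 and 31.5 in the AAV-mVEGF-C libraries. As for *Ctsk*, AAV-mVEGF-C held the highest and the lowest value, here 1.62-fold apart, and the controls lay between them. *Acp5* had a log2 fold change of −0.096 ± 0.25 (95% interval, −0.71 to 0.52). Neither fold change passed. Without AAV-mVEGF-C 2 both were positive, at 0.24 for *Ctsk* and 0.22 for *Acp5*, and without AAV-mVEGF-C 1 they were −1.0 and −0.48. *Acp5* overlaps 6530413G14Rik on the opposite strand.

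*Calcr*, the gene of the calcitonin receptor, through which calcitonin stops resorption, had 3 and 2 reads in AAV-CTRL and 9 and 1 reads in AAV-mVEGF-C. It was too low to pass the filter, and the AAV-mVEGF-C libraries held both its highest and its lowest count.

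**Figure D3:**
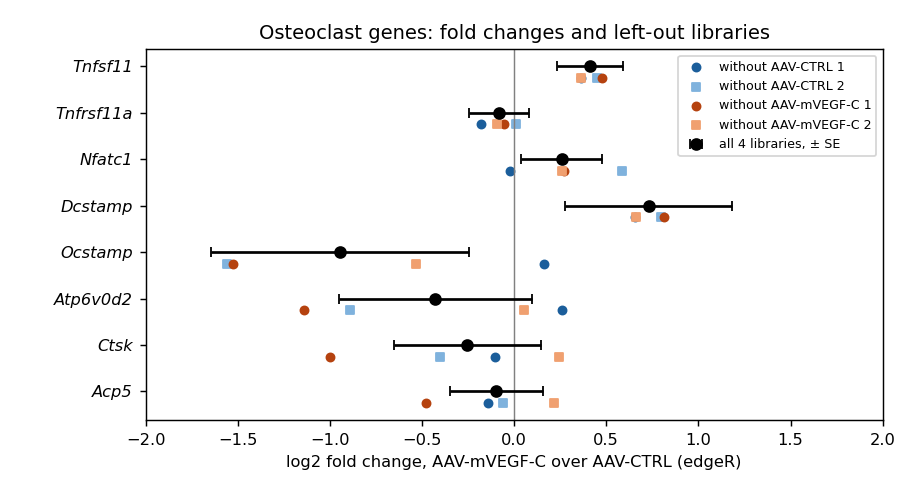
Log2 fold changes (AAV-mVEGF-C over AAV-CTRL, edgeR) of the 8 tested osteoclast genes. Black points with bars are the values with all 4 libraries ± SE, and colored points are the values without 1 library. *Tnfsf11* and *Dcstamp* keep their sign on this scale, and the other 6 genes have values on both sides of 0.

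*Ctsk*, *Acp5*, *Atp6v0d2*, and *Ocstamp* were each lowest in AAV-mVEGF-C 2, with AAV-CTRL 1 or AAV-mVEGF-C 1 highest. In log2(CPM + 1), AAV-mVEGF-C 2 was below the mean of the other 3 libraries by 1.04 for *Ctsk*, 0.98 for *Atp6v0d2*, 0.80 for *Ocstamp*, and 0.54 for *Acp5*. For *Tnfsf11* and *Dcstamp* it was instead the highest library, at 0.33 and 0.41 above the mean of the others. AAV-CTRL 1 was 1.25 above that mean for *Ocstamp*, 0.99 above for *Atp6v0d2*, and 0.58 below for *Nfatc1*.

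**Figure D4:**
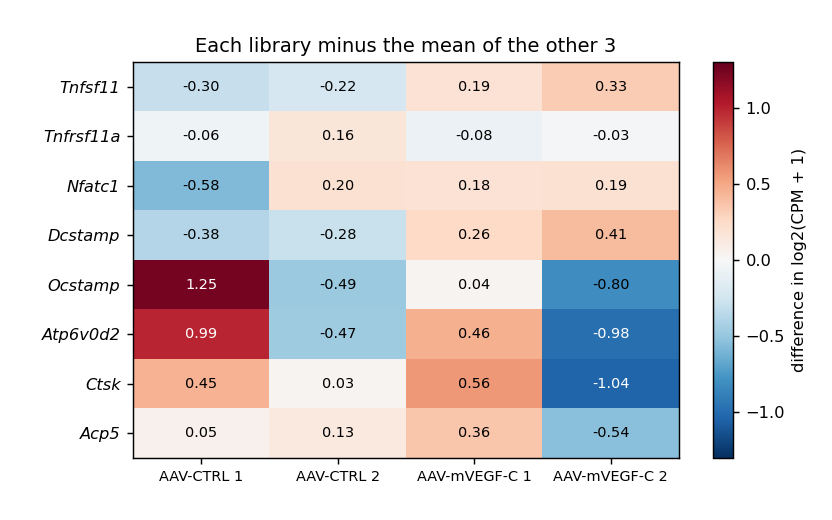
Difference in log2(CPM + 1) between each library and the mean of the other 3, for the 8 tested osteoclast genes (red, above; blue, below). AAV-mVEGF-C 2 is blue for *Ocstamp*, *Atp6v0d2*, *Ctsk*, and *Acp5* and red for *Tnfsf11* and *Dcstamp*.

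Macrophage markers did not follow the resorption genes. Their summed TPM was 841.9 and 1334 in AAV-CTRL and 644.4 and 999.4 in AAV-mVEGF-C, highest in AAV-CTRL 2. The TPM ratio of *Csf1r*, the gene of the M-CSF receptor of the whole lineage, to *Ctsk* was 7.33 and 13.6 in AAV-CTRL and 6.12 and 19.9 in AAV-mVEGF-C. That of *Csf1r* to *Acp5* was 5.83 and 8.49 in AAV-CTRL and 4.34 and 9.89 in AAV-mVEGF-C. Both ratios were lower in the library numbered 1 of each group, and both overlapped between the groups. Markers of marrow progenitors, which live in the skull bone next to the dura, summed to 1521 and 436.0 TPM in AAV-CTRL and to 739.8 and 580.9 TPM in AAV-mVEGF-C. They too were higher in the library numbered 1 of each group, as were *Ocstamp*, *Atp6v0d2*, and *Ctsk*. All 10 marrow genes had a negative fold change in the CPM fit, and 2 of the 10 were lower without overlap in CPM (against 15.2% of all tested genes). In TPM 9 had a lower and 1 a higher mean, and 3 were lower without overlap, against 28.5% of all tested genes. None of the 10 was at 0 in every library, and *Mpo* and *Elane* were the most abundant. Of the 12 macrophage markers, 11 had a negative fold change in the CPM fit. In CPM 0 were higher and 0 lower without overlap, against 16.8% and 15.2% of all tested genes. In TPM all 12 had a lower mean, as did 12638 of all 19806 tested genes. In that unit 1 was lower without overlap, against 28.5% of all tested genes. None of the 12 was at 0 in every library. The part of either cell type in the osteoclast gene values was not tested.

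The mean of the 8 tested genes in log2(CPM + 1) was 4.53 and 4.31 in AAV-CTRL and 4.58 and 4.16 in AAV-mVEGF-C. The genes whose pattern over the 4 libraries was most like that mean were Gm42576, *Lekr1*, Gm45137, *Cask*, and Gm42548, with Pearson r of 0.998 or higher. This describes 4 points only, and 46 of the 15436 genes compared (0.298%) had an r of at least 0.99.

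A list of 60 further genes of the osteoclast pathway was read in the same way, and all 60 could be tested. None had an adjusted p under 0.05 by edgeR's quasi-likelihood test, and the fold changes were split evenly, 30 positive and 30 negative, with a median of −0.0041. At an unadjusted p under 0.05, 2 were higher (*Fosl2* and *Prdm1*) and 1 was lower (*Cthrc1*), against 2.64% of all tested genes in either direction. In CPM, 13 were higher and 10 lower without overlap between the groups. Over all tested genes these shares were 16.8% and 15.2%. On the TPM scale, 18 of the 60 had a higher and 42 a lower mean after AAV-mVEGF-C, 5 were higher and 23 lower without overlap (8.92% and 28.5% of all tested genes), and 12 had the opposite sign to the CPM fit. The fold changes below are those of the CPM fit, and overlap is in CPM unless TPM is named.

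Of the 11 genes of RANK and M-CSF signaling, 6 had a positive fold change, and 5 had a higher mean in TPM. The NF-κB subunit genes *Relb* and *Nfkb2* were at 0.43 and 0.28, and *Map3k14*, which encodes the kinase NIK, was at 0.33. These 3 genes did not overlap in CPM but overlapped in TPM. *Csf1r* was at −0.22 and its ligand *Csf1* at −0.20, with overlapping groups. *Traf6*, the adaptor of RANK, was at 0.087 with overlap in CPM, but in TPM it was at 10.7 and 10.6 in AAV-CTRL and at 8.37 and 7.10 in AAV-mVEGF-C, lower in both. Of the 10 costimulation genes, 5 were positive, but in TPM 2 had a higher and 8 a lower mean, and 5 were lower without overlap, against 28.5% of all tested genes. The adaptor *Tyrobp* was at 0.20 and its partner *Trem2* at −0.43, both with overlap, though *Trem2* was lower without overlap in TPM. *Sirpb1a* was at 0.25 without overlap, but in TPM its groups overlapped with a fold of 0.948. *Siglec15* was at 1.40 ± 1.25 without overlap, at a CPM of under 1 in every library.

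Of the 9 transcription factors, 8 had a positive fold change, with a median of 0.14, and 6 had a higher mean in TPM. *Fosl2*, an AP-1 factor, had a CPM of 1004 and 1152 in AAV-CTRL and of 1389 and 1631 in AAV-mVEGF-C, a log2 fold change of 0.49 ± 0.18 with an unadjusted p of 0.0333. *Prdm1* encodes Blimp-1, which represses inhibitors of osteoclast formation and also acts in plasma cells and T cells. Its CPM was 26.5 and 29.9 in AAV-CTRL and 49.4 and 38.3 in AAV-mVEGF-C, a log2 fold change of 0.64 ± 0.20 with an unadjusted p of 0.0178. *Mitf* was the only negative one, at −0.26. Among the 5 repressors, *Bcl6* was at 0.19 and *Hes1* at −0.34 without overlap, and *Irf8* was at −0.11 with overlap.

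Of the 10 fusion and adhesion genes, 6 were positive, and 4 had a higher mean in TPM. *Adam8* was the farthest, at 0.44, with a CPM of 260.0 and 169.6 in AAV-CTRL and of 288.5 and 296.1 in AAV-mVEGF-C, and *Itgb3*, the integrin chain of the sealing zone, was at −0.0093. Of the 15 resorption genes, 12 had a negative fold change, with a median of −0.085. Of the 15, 6 were lower and 1 was higher without overlap in CPM (15.2% and 16.8% of all tested genes). In TPM all 15 had a lower mean, as did 12638 of all 19806 tested genes, and 10 of the 15 were lower without overlap, against 28.5% of all tested genes. *Car2*, the carbonic anhydrase that supplies protons for acid secretion, had a CPM of 16.9 and 21.4 in AAV-CTRL and of 8.63 and 14.4 in AAV-mVEGF-C, a difference of −0.73 ± 0.31 with an unadjusted p of 0.0546. *Car2* is also abundant in erythroid cells. *Mmp14* was at −0.35 and the chloride channel gene *Clcn7* at −0.19, both lower without overlap. The proton pump subunit *Tcirg1* was at 0.011 and *Mmp9*, which neutrophils also store, at 0.11, but both had a lower mean in TPM, with folds of 0.862 and 0.939. *Cthrc1*, a secreted protein of osteoclasts and fibroblasts, had a CPM of 2.30 and 1.05 in AAV-CTRL and of 0.230 and 0.284 in AAV-mVEGF-C, a log2 fold change of −2.69 ± 0.85 with an unadjusted p of 0.0189. Its direction was that of the fibroblast markers, which summed to 135.9 and 323.8 TPM in AAV-CTRL and to 109.1 and 167.9 TPM in AAV-mVEGF-C. All 11 tested fibroblast markers had a negative fold change, 7 without overlap (against 15.2% of all tested genes), and none of the list was at 0 in every library. The part of fibroblasts in the *Cthrc1* values was not tested.

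**Figure D5:**
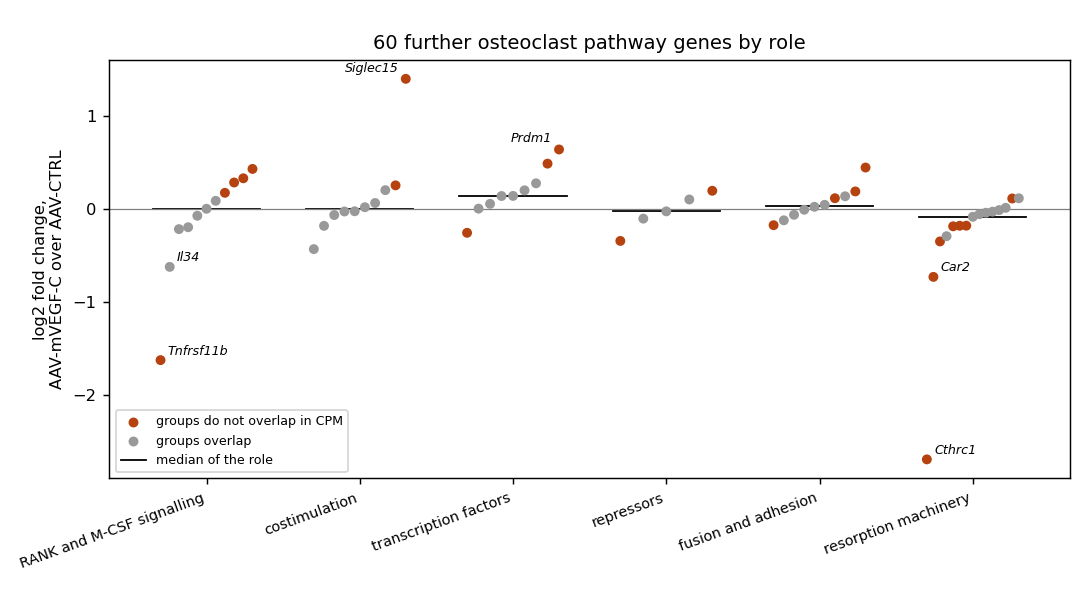
Log2 fold changes (AAV-mVEGF-C over AAV-CTRL, edgeR) of the 60 further osteoclast pathway genes, 1 point per gene and 1 column per role, sorted within each column. Orange points are genes whose groups did not overlap in CPM, and lines are medians. Most points lie close to 0, and *Cthrc1* and *Tnfrsf11b* lie lowest.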

How the data were processed

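The authors sequenced total RNA of sorted dural CD45+ cells with a stranded kit for picogram inputs that includes PCR. They deposited estimated counts per gene, without normalization, of which 8.18% were not whole. They also deposited TPM values, scaled for gene length and to 1000000 per library. The submitters' processing notes name FastQC, Trimmomatic, DRAGEN, Picard, and the build mm10; the annotation is not given in the sources used here.

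Estimated counts were rounded and tested with edgeR 4.0.16 in R 4.3.3 (TMM scaling, default filterByExpr, quasi-likelihood test, no covariate, Benjamini-Hochberg adjustment over 19806 genes). SEs were derived from the F statistic as |log2 fold change|/√F. Alternatives were DESeq2 1.42.0, limma 3.58.1 (voom, and TPM with pseudocounts of 1 and 0.1), another scaling, other filters, a replicate block, and each library left out. The crossed block was added after seeing the data. Scripts were tested on simulated data.

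The osteoclast genes and all gene lists (pathway, macrophage, monocyte, neutrophil, T cell, B cell, osteoblast and osteocyte, fibroblast, endothelial, and marrow progenitor markers) were chosen with earlier results of these data known. The text names the 10 genes, a fixed set of pathway genes (1 of which is not reported here), up to 12 more pathway genes, taken by size of change from those whose unadjusted p was under 0.05 or whose groups did not overlap, the 2 most abundant markers of a list, and the 5 genes most alike in pattern. *Ptprc* checks the sort. Gene positions follow GENCODE M21 (GRCm38), which holds 54349 of the 55401 identifiers at the same version. Promoters are from RefSeq. No pairing of libraries was assumed.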

Additional observations from a re-analysis of the deposited data

How the results depend on the processing

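No osteoclast gene passed under any alternative except *Ocstamp* without AAV-CTRL 2 (adjusted p of 0.0484, edgeR's quasi-likelihood test). Against 0 genes of all tested, 268 were called without the filter on low counts, 77 by DESeq2, 11 with the replicate block (0 osteoclast genes), 54 with the crossed replicate block, and 2 to 2058 with a library left out. The last count was 2058 without AAV-CTRL 2, 412 without AAV-CTRL 1, 65 without AAV-mVEGF-C 2, and 2 without AAV-mVEGF-C 1. Of the osteoclast genes 0 to 1 was called and of the 60 pathway genes 0 to 3 when a library was left out. Those pathway genes were *Jdp2* (0.78, named after its values were seen) and *Adam8* (0.77) without AAV-CTRL 1. Without AAV-CTRL 2 they were *Relb* (0.73), *Prdm1* (0.74), and *Cthrc1* (−3.14). The fits tested 22284 genes without AAV-CTRL 1, 22401 without AAV-CTRL 2, 20622 without AAV-mVEGF-C 1, and 22889 without AAV-mVEGF-C 2. Both fits with named pathway genes had a lone control, so the names describe these fits only. Whether pathway genes were called more often than all genes was not tested. Over all tested genes, libraries with the same experiment number did not deviate together (r = −0.134), although *Ocstamp*, *Atp6v0d2*, and *Ctsk* were higher in the library numbered 1 of each group. *Dcstamp* turned to −0.249 with TPM + 1, with or without the filter, and to −0.333 with TPM + 0.1, settings that moved the median of all tested genes to −0.078 and −0.112. With a library left out, log2 fold changes ran from −0.18 to 0.012 for *Tnfrsf11a*, −0.023 to 0.59 for *Nfatc1*, −1.56 to 0.16 for *Ocstamp*, −1.14 to 0.26 for *Atp6v0d2*, −1.0 to 0.24 for *Ctsk*, −0.48 to 0.22 for *Acp5*, 0.36 to 0.47 for *Tnfsf11*, and 0.66 to 0.81 for *Dcstamp*. The median over the 8 tested genes ran from −0.27 (without AAV-mVEGF-C 1) to 0.23 (without AAV-mVEGF-C 2). The cause of these changes was not tested. Without the filter, by DESeq2, and by limma on unfiltered TPM, *Oscar* and *Calcr* also entered the test. In these fits 0 of the 10 genes had an unadjusted p under 0.05, against 1327 of 40674, 854 of 40674, and 1355 of 40698 genes. That p was under 0.05 for 4 of the 8 tested osteoclast genes (*Ocstamp*, *Atp6v0d2*, *Tnfsf11*, and *Nfatc1*) and 6466 of all 22401 genes without AAV-CTRL 2, and for 1 (*Ctsk*) and 164 of all 20622 genes without AAV-mVEGF-C 1. At 0 to 9 reads per library, *Oscar* and *Calcr* allow little precision.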

Other observations

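Markers of other cell types were summed in TPM. Neutrophil markers, led by *S100a9* and *S100a8*, were at 32160 and 15370 in AAV-CTRL and at 17850 and 20690 in AAV-mVEGF-C, with 7 of 10 fold changes positive in the CPM fit and 5 of 10 TPM means higher. Monocyte markers, led by *Chil3* and *Nr4a1*, were at 1796 and 1358 in AAV-CTRL and at 1305 and 1467 in AAV-mVEGF-C. B cell markers, led by *Cd79a* and *Cd79b*, were at 151.3 and 369.3 in AAV-CTRL and at 128.5 and 151.0 in AAV-mVEGF-C, with all 10 fold changes negative and 2 genes lower without overlap, against 15.2% of all tested genes. Endothelial markers, led by *Cdh5* and *Flt1*, were at 4.67 and 7.18 in AAV-CTRL and at 4.51 and 4.82 in AAV-mVEGF-C. Of osteoblast and osteocyte markers, *Col1a2* and *Col1a1* were the most abundant, and of fibroblast markers *Mgp* and *Col6a2*. No gene of these lists had an adjusted p under 0.05 by edgeR's quasi-likelihood test.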
